A study of Mus musculus with 12 samples.

Results

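Overnight fasting was examined in the livers of mice labelled as hepatocyte Foxo3 knockouts. The members are the 6 liver RNA sequencing libraries, of 12 in all, that the labels describe as knockout: 3 from fed mice and 3 from mice fasted overnight, each library from its own sample. Every difference below is fasted minus fed within the knockout unless control livers are named. All mice were males aged 16 to 18 months. Knockout mice were Foxo3 flox/flox and carried Alb-cre, a Cre recombinase under the albumin promoter, which is active in hepatocytes. Livers of Foxo3 floxed mice without Cre, 3 fed and 3 fasted overnight, were the controls of the study. The labels give ad libitum as the diet of all groups. Bulk liver RNA also holds the RNA of cells in which the albumin promoter is silent, and fewer cells of a type cannot be told apart from less RNA per cell. Libraries were made from poly(A) RNA with a directional kit, and each value rests on all the cells of a liver piece.

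During a fast, adipose tissue releases fatty acids, and hepatocytes take them up, burn them in mitochondria and peroxisomes and convert part of the product into ketone bodies for export. The nuclear receptor PPAR alpha senses fatty acids and switches on much of this machinery. Insulin falls at the same time, which lowers the activity of SREBP-1c, the transcription factor that drives fatty acid synthesis after meals, and lets FoxO transcription factors enter the nucleus. Foxo3 is one of these FoxO factors, alongside Foxo1 and Foxo4.

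The 6 libraries held between 17520058 and 22337097 counts, and levels are given in CPM, the count relative to all counts of a library after scaling by the trimmed mean of M values (TMM). Replicate numbers are those of the titles, and values are listed in the order fed livers 1, 2 and 3, then fasted livers 1, 2 and 3. Foxo3 was at 59.4, 58.8 and 62.2 CPM in the fed and at 46.6, 53.6 and 53.4 CPM in the fasted livers. These levels do not check the genotype, because the count covers the whole gene and the floxed exons are not named in the labels. Of the hepatocyte markers, 0 of 10 passed the test between fasted and fed livers, and their summed level was 81067 to 104044 CPM across the 6 livers. At an unadjusted p under 0.05, edgeR had 1 of the 10 higher and 2 lower, where 14.6% of all tested genes had such a p, and DESeq2 called 1 in each direction. On the first principal component of the 6 livers, which took 40.6% of the variance, fed livers lay from -40.2 to -19.4 and fasted livers from 13.8 to 37.4. Fed liver 1 lay farthest from the fasted livers on it. The labels name no cohort or collection day, and the column numbers run in blocks by group, so cohort and feeding cannot be told apart.

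Between fed and fasted livers, 393 of 15862 tested genes (2.48%) differed at an adjusted p under 0.05. Of these, 215 were higher (1.36%) and 178 lower (1.12%) in fasted livers. A change of at least 2-fold was seen in 72 of those higher and 93 of those lower, and 4-fold in 17 and 31. In all 393 genes the fed and fasted livers did not overlap, which was true of 23.3% of all tested genes. Fed liver 1 was the lowest of the 3 fed livers in 74.0% of the genes called higher, against 35.5% of all tested genes, and the highest in 64.6% of those called lower, against 35.6%. Fasted liver 2 lay nearest to the fed livers more often than the other fasted livers. It held the lowest fasted level in 47.0% of the genes called higher, against 29.9% of all tested genes. In the genes called lower it held the highest fasted level in 47.2%, against 31.1%. The acute phase gene Saa1, which rises in inflammation, was at 2108, 105 and 328 CPM in the fed livers, highest in fed liver 1, and at 18.4, 184 and 35.7 CPM in the fasted ones, and its part in the other results was not tested. Leaving out fed livers 1, 2 or 3 left 88, 160 or 218 calls, and leaving out fasted livers 1, 2 or 3 left 157, 238 or 148. A set of 74 genes, 37 in each direction, passed without each of the 6 livers in turn. All 393 kept their direction throughout, which is no check, since groups that do not overlap can hardly turn when 1 liver is left out.

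**Figure D1:**
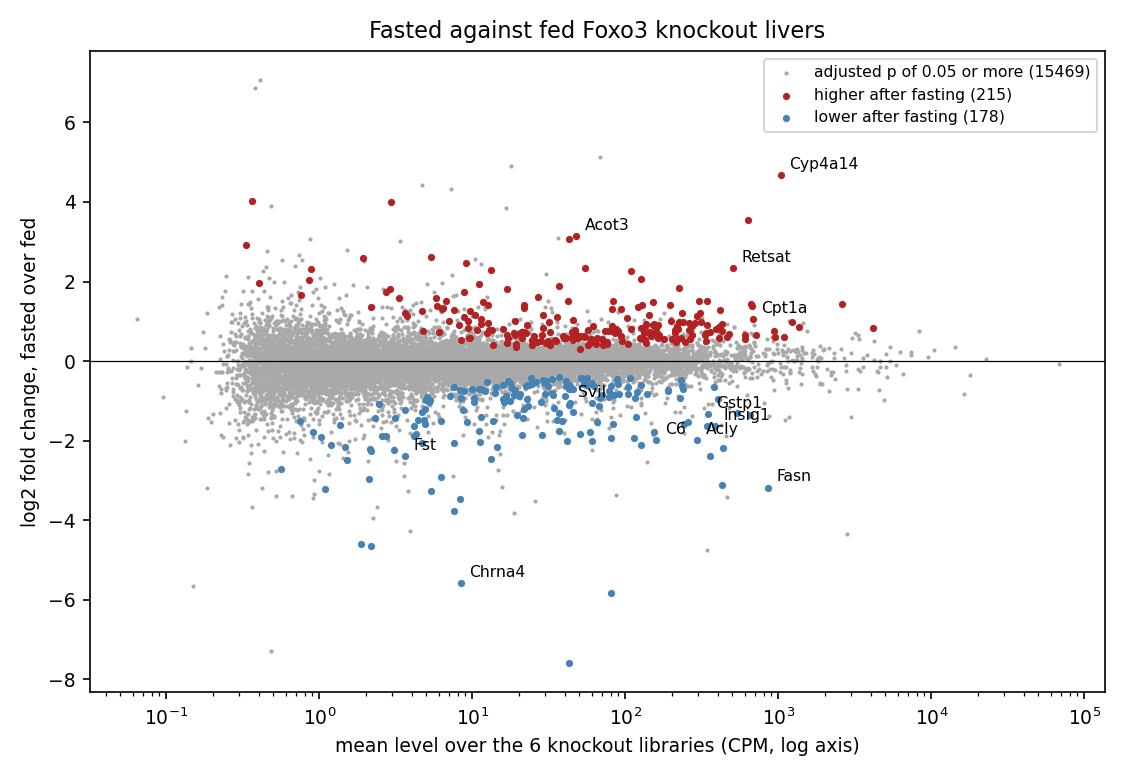
Mean level in the 6 knockout livers (CPM, log axis) against the log2 difference of fasted minus fed for the 15862 tested genes. Red points are the 215 genes called higher, blue points the 178 called lower, and grey points the genes that did not pass.

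The transport of fatty acids into mitochondria and their oxidation there had the largest share of increases among the 29 gene lists examined: 16 of 20 tested genes rose, none fell, and the median log2 difference was 0.87, against -0.0059 over all tested genes. Cpt1a, the outer-membrane enzyme that commits fatty acids to oxidation, was at 429.5, 435 and 451 CPM in the fed and 932, 1007 and 807 CPM in the fasted livers. The 3 fasted livers lay close to double the fed level and well clear of it, with a log2 difference of 1.06 ± 0.12 (SE; adjusted p = 0.0014). Slc25a20, the carrier that takes acylcarnitines across the inner membrane, went from 70.8, 92.3 and 99.1 CPM to 202, 172 and 212 CPM, a log2 difference of 1.16 ± 0.16 (SE; adjusted p = 0.0038). Its partner on the matrix side, Cpt2, went from 102, 99 and 116 CPM to 208, 180.4 and 212 CPM, a log2 difference of 0.92 ± 0.13 (SE; adjusted p = 0.0033). All 3 parts of this carnitine shuttle thus rose by between 0.92 and 1.16 on the log2 scale.

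Slc22a5 encodes OCTN2, which brings carnitine itself into the cell, and it had the highest log2 difference among the genes named in this group. Its fed livers were at 18.8, 20.4 and 26.6 CPM and its fasted livers at 55.3, 54.8 and 77.9 CPM, a log2 difference of 1.51 ± 0.20 (SE; adjusted p = 0.0038). Inside the matrix, the medium-chain dehydrogenase Acadm went from 270.0, 305 and 302 to 580.5, 523 and 574 CPM (log2 difference 0.93 ± 0.14 SE, adjusted p = 0.0045). The trifunctional protein carries the later steps for long chains, and its beta subunit Hadhb went from 114, 108 and 121 to 209, 211 and 223 CPM (log2 difference 0.90 ± 0.11 SE, adjusted p = 0.0024). Fed and fasted livers of both genes were far apart, and the fed livers of Hadhb differed among themselves by few CPM. Hadha, its alpha subunit, went from 259.9, 261 and 278 to 411, 432 and 494 CPM, with a log2 difference of 0.74 ± 0.13 (SE; adjusted p = 0.013). Etfdh, which passes the electrons of beta-oxidation to ubiquinone, went from 181, 203 and 250.1 to 411, 392 and 443 CPM (log2 difference 0.97 ± 0.15 SE, adjusted p = 0.0056), and Decr1, which handles unsaturated chains, from 128, 158 and 169 to 292, 273 and 282 CPM (log2 difference 0.89 ± 0.13 SE, adjusted p = 0.0047). The short-chain hydratase Echs1 (0.12), the thiolase Acaa2 (0.30) and both subunits of the electron transfer flavoprotein, Etfa (0.29) and Etfb (0.34), did not pass.

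Cpt1a, Cpt2, Slc25a20, Slc22a5, Acadm, Hadhb, Etfdh and Decr1 passed the test without each of the 6 livers in turn. Hadha missed it without fed liver 1 or 2 or fasted liver 3 (adjusted p 0.055 to 0.069), and the long-chain acyl-CoA synthetase Acsl1, at 754, 842 and 892 CPM fed and 1875, 1355 and 1687 CPM fasted, missed it without fed liver 1, 2 or 3 or fasted liver 1 or 3 (adjusted p 0.088 to 0.18). The 16 calls of the group became 8, 12 and 13 without fed livers 1, 2 and 3, and 13, 14 and 11 without fasted livers 1, 2 and 3. Control livers moved in the same direction in all 20 genes, with 12 called and a median log2 difference of 0.60. None of the 20 had an unadjusted p under 0.05 for a difference in fasting response between the genotypes, where 7.19% of all tested genes had one.

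Peroxisomes shorten very long and branched chains. Of 24 tested peroxisomal genes, 10 rose and 1 fell, and the median log2 difference was 0.55. Ech1, an isomerase for unsaturated chains that is present in peroxisomes and mitochondria, was at 155, 202 and 193 CPM in the fed and 406, 398 and 399 CPM in the fasted livers. The 3 fasted livers were within a few CPM of each other, and the log2 difference was 1.13 ± 0.14 (SE; adjusted p = 0.0021). Crot moves shortened chains out of peroxisomes as carnitine esters, and it went from 318, 317 and 442 CPM to 798, 949 and 1149 CPM, a log2 difference of 1.43 ± 0.18 (SE; adjusted p = 0.0025). Crat, a short-chain carnitine acyltransferase, went from 31, 55.8 and 41.6 to 132, 116 and 119.7 CPM (log2 difference 1.52 ± 0.27 SE, adjusted p = 0.017). Both acyltransferases more than doubled in every fasted liver relative to the fed mean.

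Ehhadh, the peroxisomal bifunctional enzyme, was at 234, 242 and 241 CPM in the fed livers, which were nearly equal, and at 597, 346 and 818 CPM in the fasted livers, which were not. Fasted liver 2 was the lowest of them, and the log2 difference was 1.29 ± 0.30 (SE; adjusted p = 0.044). Acaa1a, the peroxisomal thiolase, and Decr2, the peroxisomal reductase for unsaturated chains, rose by 0.78 and 0.79 on the log2 scale. Nudt7 was the 1 peroxisomal gene that fell. It encodes a hydrolase that splits coenzyme A and its esters in peroxisomes, and went from 524, 471 and 547 CPM to 169, 185 and 144 CPM, a log2 difference of -1.63 ± 0.30 (SE; adjusted p = 0.017).

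Ech1, Crot, Decr2 and Acaa1a passed without each of the 6 livers in turn. Crat missed the threshold without fed liver 1 or 3 or fasted liver 1 or 3 (adjusted p 0.059 to 0.076), Ehhadh without fed liver 1, 2 or 3 or fasted liver 1 or 3 (adjusted p 0.11 to 0.17), and Nudt7 without fed liver 1 or 3 or fasted liver 1 or 3 (adjusted p 0.058 to 0.078). Without fed livers 1, 2 and 3 the number of peroxisomal genes called higher was 4, 5 and 7, and without fasted livers 1, 2 and 3 it was 5, 10 and 4. In control livers 6 of the 24 rose and 1 fell, with a median of 0.23.

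Genes of the PPAR alpha axis and of omega-oxidation, in which cytochromes P450 oxidise the methyl end of a fatty acid, held the largest increase among called genes with a mean of at least 1 CPM. Cyp4a14 (ENSMUSG00000028715), a fatty acid omega-hydroxylase on chromosome 4, 115486200 to 115496142 (mm10), was at 48.5, 90.2 and 93.4 CPM in the fed and 2199.8, 1092 and 2665 CPM in the fasted livers. Every fasted liver was far above every fed liver, and fasted liver 2 was the lowest of the 3. The log2 difference was 4.68 ± 0.57 (SE; adjusted p = 0.0038), a 25.7-fold change. Per length, its mean went from 73 to 1868 TPM, the length-scaled unit of the deposited data, among the 8 highest of the called genes. Cyp4a10, its neighbour in the same gene cluster, went from 40.6, 126 and 130.5 to 1395, 793 and 1307 CPM (log2 difference 3.55 ± 0.61 SE, adjusted p = 0.017). Fed liver 1 was the lowest fed liver for both. Cyp4a14, Cyp4a10, Cyp4a31 and Cyp4a32 are near-identical copies, so how reads were divided among them is uncertain.

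In this group of 28 tested genes 9 rose and 2 fell, with a median log2 difference of 0.50. Ppara itself was at 129, 144 and 159 CPM in the fed and 217, 225 and 196 CPM in the fasted livers, a log2 difference of 0.56 ± 0.13 (SE; adjusted p = 0.036). Aldh3a2, which oxidises the fatty aldehydes made by omega-oxidation, went from 261, 434 and 421 CPM to 1071, 848 and 997 CPM, a log2 difference of 1.39 ± 0.24 (SE; adjusted p = 0.010). Vnn1, a pantetheinase and a known target of PPAR alpha, went from 19.1, 58.2 and 70.6 CPM to 207, 206 and 201 CPM (log2 difference 2.05 ± 0.39 SE, adjusted p = 0.026). Fed liver 1 was the lowest fed liver for Ppara, Aldh3a2 and Vnn1, and the fasted livers of Vnn1 were nearly equal. Slc27a2, a fatty acid transporter and very-long-chain acyl-CoA synthetase, went from 969, 925 and 1030.1 to 1682, 1825 and 1758 CPM (log2 difference 0.85 ± 0.15 SE, adjusted p = 0.013). The synthetases Acsl4 (log2 difference -1.04 ± 0.19 SE, adjusted p = 0.016) and Acsl5 (log2 difference -0.64 ± 0.12 SE, adjusted p = 0.016) were the 2 that fell.

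Not every gene known to answer to PPAR alpha passed. Fgf21, the fasting hormone of the liver, was at 0.261, 1.41 and 0.431 CPM fed and 1.81, 3.06 and 2.99 CPM fasted. Its groups did not overlap, though fed liver 2 came near, and the log2 difference was 1.91 ± 0.69 (SE; adjusted p = 0.21). Angptl4, an inhibitor of lipoprotein lipase, was at 32, 51.7 and 77.3 CPM fed and 90.1, 135 and 154 CPM fasted (log2 difference 1.24 ± 0.32 SE, adjusted p = 0.080). Cd36, a fatty acid uptake protein, was at 82.7, 121 and 119.7 CPM fed and 295, 202 and 250.4 CPM fasted, also without overlap, and narrowly missed (log2 difference 1.21 ± 0.29 SE, adjusted p = 0.054). Its log2 difference in control livers was -0.46. The difference between these responses had an unadjusted p of 0.0016 by edgeR (adjusted p 0.52) and an adjusted p of 0.013 by DESeq2. Cyp4a14 passed without each of the 6 livers in turn. Cyp4a10 missed without fed liver 1 or 2 or fasted liver 1 or 3 (adjusted p 0.053 to 0.057), Ppara without each of the 6 livers in turn (adjusted p 0.052 to 0.18), Aldh3a2 without fed liver 1 (adjusted p 0.050), and Vnn1 without fed liver 2 or fasted liver 1, 2 or 3 (adjusted p 0.066 to 0.079). Slc27a2 missed without fed liver 1 or 2 (adjusted p 0.057 to 0.065), Acsl4 without fed liver 1 or fasted liver 1 or 3 (adjusted p 0.066 to 0.074), and Acsl5 without fed liver 1 or 2 or fasted liver 1 or 3 (adjusted p 0.052 to 0.079). The 9 calls higher became 2, 2 and 7 without fed livers 1, 2 and 3, and 4, 5 and 3 without fasted livers 1, 2 and 3, while DESeq2 gave 15 higher and 4 lower.

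Ketone body synthesis and export had 5 of 10 tested genes higher and 1 lower, with a median log2 difference of 0.50. Bdh1, which makes 3-hydroxybutyrate, the main ketone body in blood, went from 146, 188 and 196 CPM to 346, 358 and 332 CPM (log2 difference 0.96 ± 0.13 SE, adjusted p = 0.0028). All fasted livers lay above all fed livers, and fed liver 1 was the lowest. The thiolase Acat1 rose by 0.75 on the log2 scale, and Slc16a7, a monocarboxylate transporter able to carry ketone bodies, by 0.69. The gene that fell was Aacs, which uses acetoacetate for lipid synthesis in the cytosol and went from 147, 241 and 152 CPM to 50.6, 51 and 38.7 CPM (log2 difference -1.95 ± 0.28 SE, adjusted p = 0.0070). Bdh1 and the cytosolic enzyme that consumes acetoacetate thus moved in opposite directions.

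Bdh1 and Aacs passed without each of the 6 livers in turn. Acat1 missed without fed liver 1 (adjusted p 0.064), and Slc16a7 without each of the 6 livers in turn (adjusted p 0.061 to 0.17). Without fed liver 1 the number called higher was 2, and without the other livers it was 3 or 4. For Bdh1 and Slc16a7 the control livers showed log2 differences of 0.29 and -0.15. The unadjusted p of the difference between genotypes was 0.0023 for Bdh1 and 0.0020 for Slc16a7, and by DESeq2 the adjusted p was 0.046 and 0.082. By edgeR neither passed (adjusted p 0.53 and 0.53).

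Acyl-CoA thioesterases release free fatty acid and coenzyme A. Of 13 tested, 5 rose and none fell, with a median of 0.63. Acot1, the cytosolic long-chain enzyme, was at 5.75, 10.1 and 11.3 CPM in the fed and 90.0, 45.8 and 93.6 CPM in the fasted livers (log2 difference 3.08 ± 0.49 SE, adjusted p = 0.016). Its mitochondrial relative Acot2 was at 2.35, 2.87 and 3.18 CPM and 19.9, 14.9 and 11.6 CPM (log2 difference 2.47 ± 0.44 SE, adjusted p = 0.018). The peroxisomal Acot3 was at 3.19, 13.2 and 12.8 CPM and 116, 64.9 and 76.1 CPM (log2 difference 3.14 ± 0.58 SE, adjusted p = 0.027). All 3 were low in every fed liver and several-fold higher in every fasted liver. Acot1 to Acot4 are close copies in 1 gene cluster, so the split of reads between them is uncertain. Acot1 missed the threshold without fed liver 1 or 2 or fasted liver 1 or 3 (adjusted p 0.052 to 0.077), Acot2 without fed liver 1, 2 or 3 or fasted liver 1 (adjusted p 0.055 to 0.10), and Acot3 without each of the 6 livers in turn (adjusted p 0.051 to 0.083). The 5 calls became 0, 0 and 3 without fed livers 1, 2 and 3, and 0, 4 and 1 without fasted livers 1, 2 and 3.

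Lipid droplets hold, as triglyceride, fatty acids that a fasted liver takes up. Of 21 tested genes of droplets and lipolysis, 6 rose and none fell, with a median of 0.63. Plin5, a droplet coat protein that binds mitochondria, was at 16.1, 19.5 and 17.9 CPM in the fed and 37.1, 36 and 45.8 CPM in the fasted livers. All fasted livers were about double the fed level (log2 difference 1.15 ± 0.15 SE, adjusted p = 0.0028). Mgll, which completes the breakdown of triglyceride to glycerol, went from 93, 156 and 179 to 341, 339 and 305 CPM (log2 difference 1.20 ± 0.20 SE, adjusted p = 0.0100), and Pnpla2, which starts it, from 74.1, 71.2 and 72.9 to 97, 110.3 and 132 CPM (log2 difference 0.64 ± 0.11 SE, adjusted p = 0.012). The coat protein Plin4 rose from 11.6, 22.3 and 20.1 CPM to 120.0, 78.2 and 76.1 CPM (log2 difference 2.35 ± 0.46 SE, adjusted p = 0.032). Genes of both storage and breakdown were therefore among those that rose.

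Plin2, the main droplet coat of hepatocytes, was at 284, 368 and 435 CPM fed and 693, 628 and 652 CPM fasted without overlap, and did not pass (log2 difference 0.86 ± 0.23 SE, adjusted p = 0.075). Cidec, which promotes droplet fusion, was at 19, 45.6 and 34.1 CPM fed and 106, 78.3 and 52.5 CPM fasted (log2 difference 1.27 ± 0.40 SE, adjusted p = 0.16). In control livers Plin2 and Cidec had log2 differences of -0.15 and -0.59. The unadjusted p of the difference between genotypes was 0.0082 and 0.0081. For Cidec it passed by DESeq2 (adjusted p 0.046) and not by edgeR (adjusted p 0.58). Plin5 and Mgll passed without each of the 6 livers in turn, Pnpla2 missed without fed liver 1 or 2 (adjusted p 0.053 to 0.054), and Plin4 without each of the 6 livers in turn (adjusted p 0.064 to 0.14). The 6 calls became 2, 2 and 3 without fed livers 1, 2 and 3, and 3, 4 and 3 without fasted livers 1, 2 and 3.

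**Figure D2:**
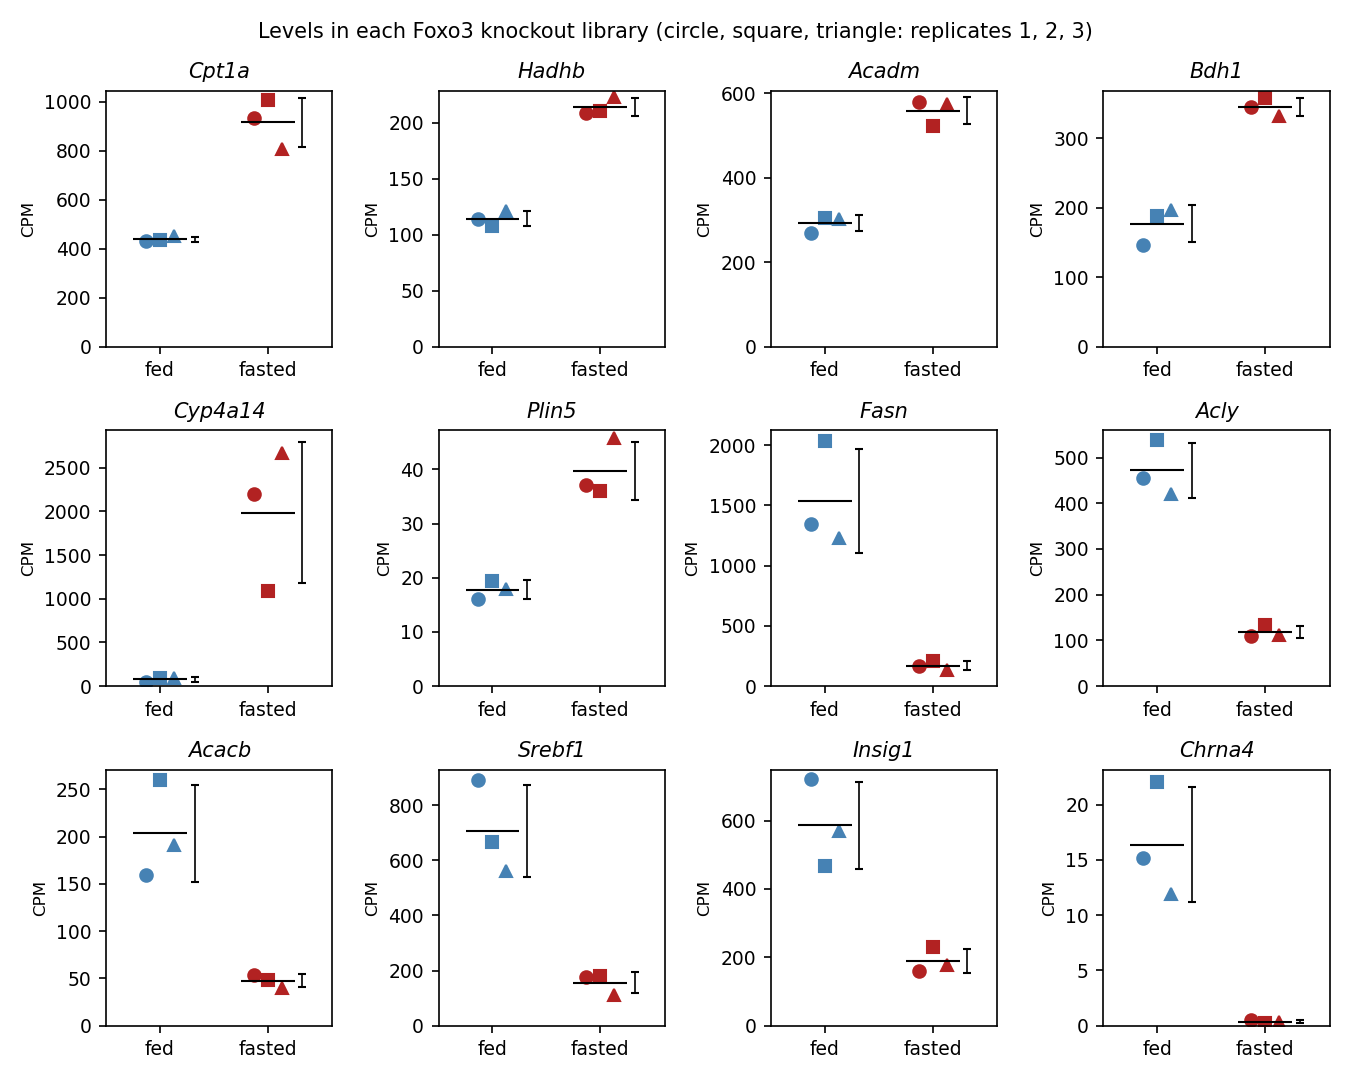
Level of 12 genes in each of the 6 knockout livers (CPM, 1 panel a gene). Circles, squares and triangles are replicates 1, 2 and 3, bars are group means and error bars the SD (n = 3); in every panel the fed and fasted livers do not overlap, with Cpt1a, Hadhb, Acadm, Bdh1, Cyp4a14 and Plin5 higher and Fasn, Acly, Acacb, Srebf1, Insig1 and Chrna4 lower after fasting.

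In fatty acid synthesis, 13 of 27 tested genes were lower and none higher, and the median log2 difference was -0.81. Fasn (fatty acid synthase), which builds palmitate, was at 1348, 2029.6 and 1231 CPM in the fed and 166, 207 and 135 CPM in the fasted livers. The highest fasted liver was far below the lowest fed liver, and the log2 difference was -3.18 ± 0.30 (SE; adjusted p = 0.00071). The steps that feed it moved alike. Acly, which makes cytosolic acetyl-CoA from citrate, went from 456, 539 and 420.5 CPM to 109, 134 and 112 CPM (log2 difference -1.99 ± 0.20 SE, adjusted p = 0.00093). Acss2, which makes it from acetate, went from 325, 451 and 310.4 to 136, 111 and 114 CPM (log2 difference -1.59 ± 0.24 SE, adjusted p = 0.0072). Both acetyl-CoA carboxylases fell.

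Acaca, whose product malonyl-CoA is the building unit of fatty acids, went from 153, 184 and 170.5 CPM to 61.1, 70.1 and 61.8 CPM (log2 difference -1.40 ± 0.15 SE, adjusted p = 0.0010). Acacb, whose malonyl-CoA inhibits Cpt1a at the mitochondrial surface, went from 159.8, 260.0 and 191 CPM to 53.8, 48.7 and 39.9 CPM (log2 difference -2.10 ± 0.21 SE, adjusted p = 0.00093). In both, all fasted livers were far below all fed livers. Srebf1, which encodes SREBP-1, the regulator of these enzymes, went from 890.3, 667 and 561 CPM to 178, 179 and 112 CPM (log2 difference -2.17 ± 0.34 SE, adjusted p = 0.0092). Mlxipl (ChREBP), a glucose-responsive regulator of the same enzymes, went from 264, 334 and 282 CPM to 179, 173 and 193 CPM (log2 difference -0.69 ± 0.15 SE, adjusted p = 0.027).

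Pnpla3, a triglyceride hydrolase gene driven by SREBP-1c, was at 3.14, 6.13 and 3.28 CPM fed and near 0 fasted, at 0.177, 0.225 and 0.0576 CPM, which rests on few counts (log2 difference -4.66 ± 0.68 SE, adjusted p = 0.0054). Elovl6, which elongates palmitate, went from 157, 340.1 and 212 CPM to 87.2, 70.0 and 49.6 CPM (log2 difference -1.78 ± 0.31 SE, adjusted p = 0.016). Thrsp, a small lipogenic protein, went from 709, 928 and 654 CPM to 153, 77.2 and 34.1 CPM (log2 difference -3.11 ± 0.53 SE, adjusted p = 0.017). The fasted livers of Thrsp differed among themselves by more than 4-fold, with fasted liver 1 the highest. Scd1, the desaturase that makes oleate, was at 17359.8, 21082 and 24435 CPM fed and 17607, 7179 and 10955 CPM fasted. Its groups overlapped, since fasted liver 1 lay above fed liver 1, and the log2 difference of -0.81 ± 0.37 (SE; adjusted p = 0.34) did not pass, beside -2.31 (adjusted p = 0.0077) in control livers. The unadjusted p of that difference between genotypes was 0.014 (adjusted p 0.62).

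Fasn, Acly, Acss2, Acaca, Acacb, Srebf1 and Pnpla3 passed without each of the 6 livers in turn. Elovl6 missed without fasted liver 2 or 3 (adjusted p 0.051 to 0.060), Thrsp without fed liver 1 or 2 or fasted liver 2 (adjusted p 0.053 to 0.066), and Mlxipl without each of the 6 livers in turn (adjusted p 0.065 to 0.12). The 13 calls became 9, 9 and 11 without fed livers 1, 2 and 3, and 11, 9 and 8 without fasted livers 1, 2 and 3. Control livers had 16 of the 27 lower, with a median of -1.57.

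Cholesterol synthesis and uptake had 5 of 27 tested genes lower and none higher, while 25 of the 27 log2 differences were below 0, with a median of -0.85. Insig1, which holds the SREBP precursors in the endoplasmic reticulum and is itself an SREBP target, was at 721, 468 and 569.9 CPM in the fed and 160.0, 229 and 178 CPM in the fasted livers (log2 difference -1.63 ± 0.22 SE, adjusted p = 0.0028). Sc5d, a late enzyme of the pathway, went from 815, 801 and 688 CPM to 289, 367 and 274 CPM (log2 difference -1.31 ± 0.19 SE, adjusted p = 0.0041). The fed and fasted livers of both were well apart. Dhcr7, which makes cholesterol in the last step, was at 140.0, 133 and 99.5 CPM and 35.1, 67.5 and 21.1 CPM (log2 difference -1.59 ± 0.36 SE, adjusted p = 0.047).

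Fasted liver 2 was the highest fasted liver for Insig1, Sc5d and Dhcr7. Srebf2, which encodes the SREBP that drives cholesterol synthesis, had a log2 difference of 0.026 (adjusted p 0.97). Insig1 and Sc5d passed without each of the 6 livers in turn, and Dhcr7 missed without fed liver 1, 2 or 3 or fasted liver 1 or 3 (adjusted p 0.075 to 0.17). The 5 calls became 2 without fed liver 1, 2 or 3 or fasted liver 1 or 3, and 9 without fasted liver 2. DESeq2 called 11 lower and 1 higher. In control livers 3 of the 27 fell, against 2.09% of all tested genes called lower there, with a median of -0.43.

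The promoters of Fasn, Insig1 and Sc5d are shown as examples from lipid and sterol synthesis, out of several genes of these lists that were lower and passed without each of the 6 livers in turn. SREBP acts at such promoters together with NF-Y, which binds CCAAT boxes, and USF factors, which bind the E-box CACGTG. Each sequence is the 250 bases before the start of the gene in RefSeq on GRCm38.p6, on the strand of the gene. Capitals mark the CCAAT box, as CCAAT or its reverse complement ATTGG, and the E-box CACGTG.
Fasn, chr11:120824548-120824797, minus strand: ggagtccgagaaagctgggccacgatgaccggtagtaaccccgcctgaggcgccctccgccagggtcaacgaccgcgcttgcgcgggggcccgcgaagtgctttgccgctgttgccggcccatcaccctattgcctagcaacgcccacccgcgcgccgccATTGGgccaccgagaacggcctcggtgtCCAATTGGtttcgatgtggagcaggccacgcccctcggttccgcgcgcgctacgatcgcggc
Insig1, chr5:28071162-28071411, plus strand: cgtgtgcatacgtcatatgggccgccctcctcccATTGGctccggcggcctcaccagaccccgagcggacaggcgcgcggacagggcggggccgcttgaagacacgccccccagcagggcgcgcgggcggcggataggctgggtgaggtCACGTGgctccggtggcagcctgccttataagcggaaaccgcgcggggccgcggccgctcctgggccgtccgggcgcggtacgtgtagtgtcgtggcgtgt
Sc5d, chr9:42264301-42264550, minus strand: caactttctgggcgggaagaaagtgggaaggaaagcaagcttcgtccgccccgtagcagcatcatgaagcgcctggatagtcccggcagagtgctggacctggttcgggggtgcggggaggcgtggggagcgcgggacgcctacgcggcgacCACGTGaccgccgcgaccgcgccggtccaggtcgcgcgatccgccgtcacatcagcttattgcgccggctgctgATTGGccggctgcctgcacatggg
The Fasn window held 3 matches to the CCAAT box, of which 2 overlap, between 90 and 55 bases before the start. The Insig1 window held an E-box from 101 to 96 bases and a CCAAT box from 216 to 212 bases before the start. Sc5d held an E-box from 98 to 93 and a CCAAT box from 24 to 20 bases before its start.

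Matches were then counted on both strands of all such windows, with motifs chosen when the changes were known. A CCAAT box was in 18 of the 20 cholesterol genes that had a window (90.0%) and in 13 of 23 fatty acid synthesis genes (56.5%), against 40.1% of 11096 tested genes with a window. Lists whose called genes were mostly higher held it as well, in 11 of 21 genes of the PPAR alpha axis (52.4%), 9 of 18 of peroxisomal and 7 of 18 of mitochondrial oxidation. Of the genes called lower, 51.9% held one, and of those called higher 40.6%. An E-box was in 5 of the 20 cholesterol genes (25%), in 3 of 23 fatty acid synthesis genes, in 3 of 21 of the PPAR alpha axis, in 0 of 18 genes of either oxidation list and in 9.6% of tested genes. Genes called higher held it in 13.1% and genes called lower in 10.7%. The sterol response element TCACNCCAC was in 1 of 20 cholesterol genes (5.0%) and 1 of 23 fatty acid synthesis genes (4.3%), beside 1 of 18 in each oxidation list (5.6%) and 1.3% of tested genes. It was in 9 of 131 genes called lower (6.9%) and in 5 of 160 called higher (3.1%). None of these shares was tested. None of the 3 motifs contains another, and matches that share bases at their edges were counted for each. Nfyb, which encodes a subunit of NF-Y, was itself lower, at 38.4, 38.9 and 35.7 CPM fed and 22.9, 23 and 26.7 CPM fasted (log2 difference -0.64 ± 0.10 SE, adjusted p = 0.0072), while Nfya (0.35) and Nfyc (0.025) did not pass. Nfyb was picked after its values were seen.

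Among genes of glucose production, 3 of 20 tested rose and none fell, with a median of 0.16. Gk, glycerol kinase, which brings glycerol from fat into glucose synthesis, was at 105, 108 and 118 CPM in the fed and 172, 212 and 240.1 CPM in the fasted livers (log2 difference 0.92 ± 0.13 SE, adjusted p = 0.0045). Pcx, which makes oxaloacetate from pyruvate, rose by 0.56 and Mpc1, a subunit of the mitochondrial pyruvate carrier, by 0.57 on the log2 scale. Pck1, the cytosolic enzyme that commits oxaloacetate to glucose, was at 2729.5, 2129 and 2821 CPM fed and 2574, 4385 and 5114 CPM fasted. Its groups overlapped, because fasted liver 1 lay within the fed range, and it did not pass (log2 difference 0.65 ± 0.23 SE, adjusted p = 0.19). G6pc, which releases free glucose, had a log2 difference of -1.08 ± 0.43 (SE; adjusted p = 0.28). Gk passed without each of the 6 livers in turn, and was the 1 call left in each of these 6 fits, since Pcx missed without each of the 6 livers in turn (adjusted p 0.050 to 0.14) and Mpc1 without each of the 6 livers in turn (adjusted p 0.050 to 0.20). By DESeq2, 5 rose and 2 fell.

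Among 28 tested genes of glycolysis and glycogen, 1 fell (3.6%) and none rose, with a median of -0.16. Of all tested genes 2.48% were called. Ppp1r3g, a glycogen-targeting subunit of protein phosphatase 1, went from 5.59, 13.8 and 13.5 CPM to 1.77, 1.71 and 0.806 CPM (log2 difference -2.91 ± 0.56 SE, adjusted p = 0.025). It missed the threshold without fed liver 2 or 3 or fasted liver 1, 2 or 3 (adjusted p 0.069 to 0.098). Pklr, the liver pyruvate kinase, had a log2 difference of -1.37 ± 0.40 (SE; adjusted p = 0.13). In amino acid breakdown and urea cycle enzymes, edgeR called 0 of 32, and DESeq2 called 2 higher and 1 lower. Of the 32 genes, 3 were higher and 2 lower at an unadjusted p under 0.05, where 14.6% of all tested genes had such a p. Their median was -0.04, beside 0.40 in control livers, where 5 rose.

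Tat breaks down tyrosine under glucocorticoid control, and was listed with the genes of glucose production, which amino acids feed. Knockout livers held 2058, 1351 and 1605 CPM when fed and 1008, 1179.8 and 1189 CPM when fasted (log2 difference -0.57 ± 0.19 SE, adjusted p = 0.15). Control livers held 826, 889 and 597 CPM when fed and 1369, 1279 and 1599 CPM when fasted. Fasted knockout livers lay below all fed knockout livers. The control log2 difference was 0.88 (adjusted p = 0.021). The difference between the genotypes had an unadjusted p of 0.00011, an adjusted p of 0.20 by edgeR and one of 0.00019 by DESeq2.

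Insulin signalling genes and FoxO targets gave 1 call among 29 tested (3.4%), near the 2.48% of all tested genes that were called. Trib3, a pseudokinase that restrains AKT, rose from 4.60, 5.34 and 7.16 CPM to 11.6, 8.94 and 11.3 CPM (log2 difference 0.90 ± 0.19 SE, adjusted p = 0.024), and missed the threshold without fed liver 1 or 2 or fasted liver 1 or 3 (adjusted p 0.082 to 0.13). Irs2, an insulin receptor substrate and a known FoxO target, was at 28.1, 25.6 and 39.6 CPM fed and 18.4, 22.2 and 23.3 CPM fasted. The fasted livers lay below the fed ones, and the log2 difference was -0.55 ± 0.16 (SE; adjusted p = 0.10), beside 0.50 in control livers. The difference between genotypes had an unadjusted p of 0.00049, an adjusted p of 0.39 by edgeR and one of 0.042 by DESeq2. Foxo3 had a log2 difference of -0.23 ± 0.093 (SE; adjusted p = 0.25). Its paralog Foxo1 was at 48.8, 50.4 and 48.6 CPM fed and 49.1, 71.5 and 63.7 CPM fasted, where fasted liver 1 lay inside the range of the fed livers (log2 difference 0.32 ± 0.14 SE, adjusted p = 0.30). Foxo4 was at 26.7, 27.2 and 29.7 CPM and 22.5, 27.6 and 29.2 CPM, with overlapping groups (log2 difference -0.078 ± 0.14 SE, adjusted p = 0.87). None of the 3 passed, and Foxo6 was too low to be tested.

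Among 29 tested hepatokines and genes of the growth hormone axis, 1 passed (3.4%), near the 2.48% of all tested genes. Fst, which encodes follistatin, a secreted binder of activins, fell from 5.91, 6.47 and 5.98 CPM to 1.19, 1.21 and 1.09 CPM (log2 difference -2.38 ± 0.26 SE, adjusted p = 0.0010) and passed without each of the 6 livers in turn. Each group spanned well under 1 CPM. Control livers had a log2 difference of -1.10, and the difference between genotypes had an unadjusted p of 0.0041 (adjusted p 0.55). Among 19 clock genes and clock outputs, Bhlhe40, a repressor in the clock loop, fell from 291, 298 and 302 CPM to 179, 139 and 151 CPM (log2 difference -0.92 ± 0.11 SE, adjusted p = 0.0021), and passed without each of the 6 livers in turn. Per1 rose by 0.62 on the log2 scale (adjusted p = 0.029) and missed without fed liver 1, 2 or 3 or fasted liver 1 or 3 (adjusted p 0.075 to 0.12). The time of day of sampling is not given in the sources used here.

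Bile acid synthesis and hepatic transport gave 3 increases among 24 tested genes. Abcb4, which exports phosphatidylcholine into bile, was at 143, 184 and 234 CPM fed and 378, 399 and 512 CPM fasted (log2 difference 1.20 ± 0.20 SE, adjusted p = 0.0090), and passed without each of the 6 livers in turn. Cyp8b1, which directs bile acid synthesis to cholic acid, was at 63.9, 132 and 95.8 CPM and 450.4, 410.1 and 191 CPM (log2 difference 1.85 ± 0.35 SE, adjusted p = 0.022). Fasted liver 3 held less than the others, and the call was lost without fed liver 1 or 3 or fasted liver 1 or 2 (adjusted p 0.063 to 0.089). Abcc3, an export pump on the blood side, rose by 0.81 on the log2 scale, with the call lost without fed liver 1 or 2 or fasted liver 1 or 3 (adjusted p 0.056 to 0.11).

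Nr1i3 (CAR), a nuclear receptor that induces drug metabolism, counted among the P450 list with its targets, in which 3 of 36 rose and 1 fell. It was at 138, 203 and 192 CPM in the fed and 466, 471 and 575 CPM in the fasted livers (log2 difference 1.50 ± 0.28 SE, adjusted p = 0.017), and missed the threshold without fed liver 1 or fasted liver 3 (adjusted p 0.065 to 0.092). Tomm40l lies on the opposite strand of Nr1i3, and the strand setting of the counting is not given in the sources used here. Cyp2c70, the enzyme that makes the muricholic acids of mice, fell from 799, 530.3 and 465 CPM to 95, 86.2 and 164 CPM (log2 difference -2.38 ± 0.30 SE, adjusted p = 0.0033) and passed without each of the 6 livers in turn. Every fed liver was at least 2-fold above every fasted liver. Its relatives Cyp2c38 (log2 difference 1.32 ± 0.26 SE, adjusted p = 0.024) and Cyp2c39 (log2 difference 1.58 ± 0.35 SE, adjusted p = 0.034) rose, and they missed without fed liver 2 or fasted liver 1 or 3 (adjusted p 0.071 to 0.087) for Cyp2c38 and fed liver 1 or 2 or fasted liver 1 or 3 (adjusted p 0.060 to 0.16) for Cyp2c39. The mouse Cyp2c genes are close copies, so their reads may be divided between them.

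Mouse liver expresses many genes differently in males and females, and growth hormone is secreted in pulses in males and more evenly in females. All 22 tested male-biased genes had log2 differences below 0 in these males, with 4 called lower and a median of -1.34. Hsd3b5, a steroid-metabolising enzyme of male liver, was at 84.1, 69 and 102 CPM in the fed and 0.133, 0.809 and 0.346 CPM in the fasted livers. All fed livers were high and all fasted livers under 1 CPM, and the log2 difference was -7.60 ± 1.58 (SE; adjusted p = 0.045). Selenbp2 was at 372, 49.7 and 54.2 CPM fed, with fed liver 1 far above the others, and 1.99, 4.99 and 1.27 CPM fasted (log2 difference -5.82 ± 1.14 SE, adjusted p = 0.036). Nudt7, described above with the peroxisomes, and C6, a complement component, were the other 2 called. C6 went from 311, 236 and 216 CPM to 34.9, 93.9 and 64.1 CPM (log2 difference -1.99 ± 0.35 SE, adjusted p = 0.019). Mup20, a male urinary pheromone protein, was at 1954, 1628 and 1555 CPM and 292, 857 and 782 CPM, without overlap and without passing (log2 difference -1.41 ± 0.52 SE, adjusted p = 0.23). Of the 19 tested female-biased genes 3 rose and none fell, 16 log2 differences were above 0 and the median was 1.14.

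Cyp2b9, a cytochrome P450 of female liver, was at 0.314, 1.07 and 9.85 CPM fed and 279, 31.6 and 84.6 CPM fasted, with a wide spread within both groups, and did not pass (log2 difference 5.14 ± 1.66 SE, adjusted p = 0.18). The call of Hsd3b5 was lost without each of the 6 livers in turn (adjusted p 0.10 to 0.17), that of Selenbp2 without fed liver 1 or 2 or fasted liver 1, 2 or 3 (adjusted p 0.052 to 0.14) and that of C6 without fed liver 1 or 2 or fasted liver 3 (adjusted p 0.051 to 0.086). The number of male-biased genes called lower was 0, 1 and 2 without fed livers 1, 2 and 3, and 1, 2 and 0 without fasted livers 1, 2 and 3, while 1 female-biased gene was called higher in each of those fits. In control livers the medians were 0.02 for male-biased and 0.53 for female-biased genes, with 1 lower and 2 higher. By edgeR, 8 of the 22 male-biased and 6 of the 19 female-biased genes had an unadjusted p under 0.05 for a difference between genotypes, where 7.19% of all tested genes had one. After adjustment 0 passed by edgeR, and by DESeq2 C6 (0.039) and Cyp2a4 (0.013) did. An unadjusted p under 0.05 for this difference was also seen in 9 of 28 PPAR alpha axis and 7 of 21 lipid droplet genes. Ketone body (3 of 10), thioesterase (4 of 13), energy sensing (7 of 26) and amino acid breakdown genes (7 of 32) had it too. The same held for insulin signalling (6 of 29), apolipoproteins (5 of 23) and fatty acid synthesis (5 of 27), and further lists lay above 7.19%. Such a p was seen in 0 of 20 genes of mitochondrial oxidation and 0 of 27 of cholesterol synthesis and uptake. The cell cycle list had 0 of 19 and the respiratory chain list 1 of 35. These shares rest on all 12 libraries and were not tested. Hsd3b, Mup, Selenbp and Cyp2b genes have near-identical copies, so their separate values are uncertain.

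**Figure D3:**
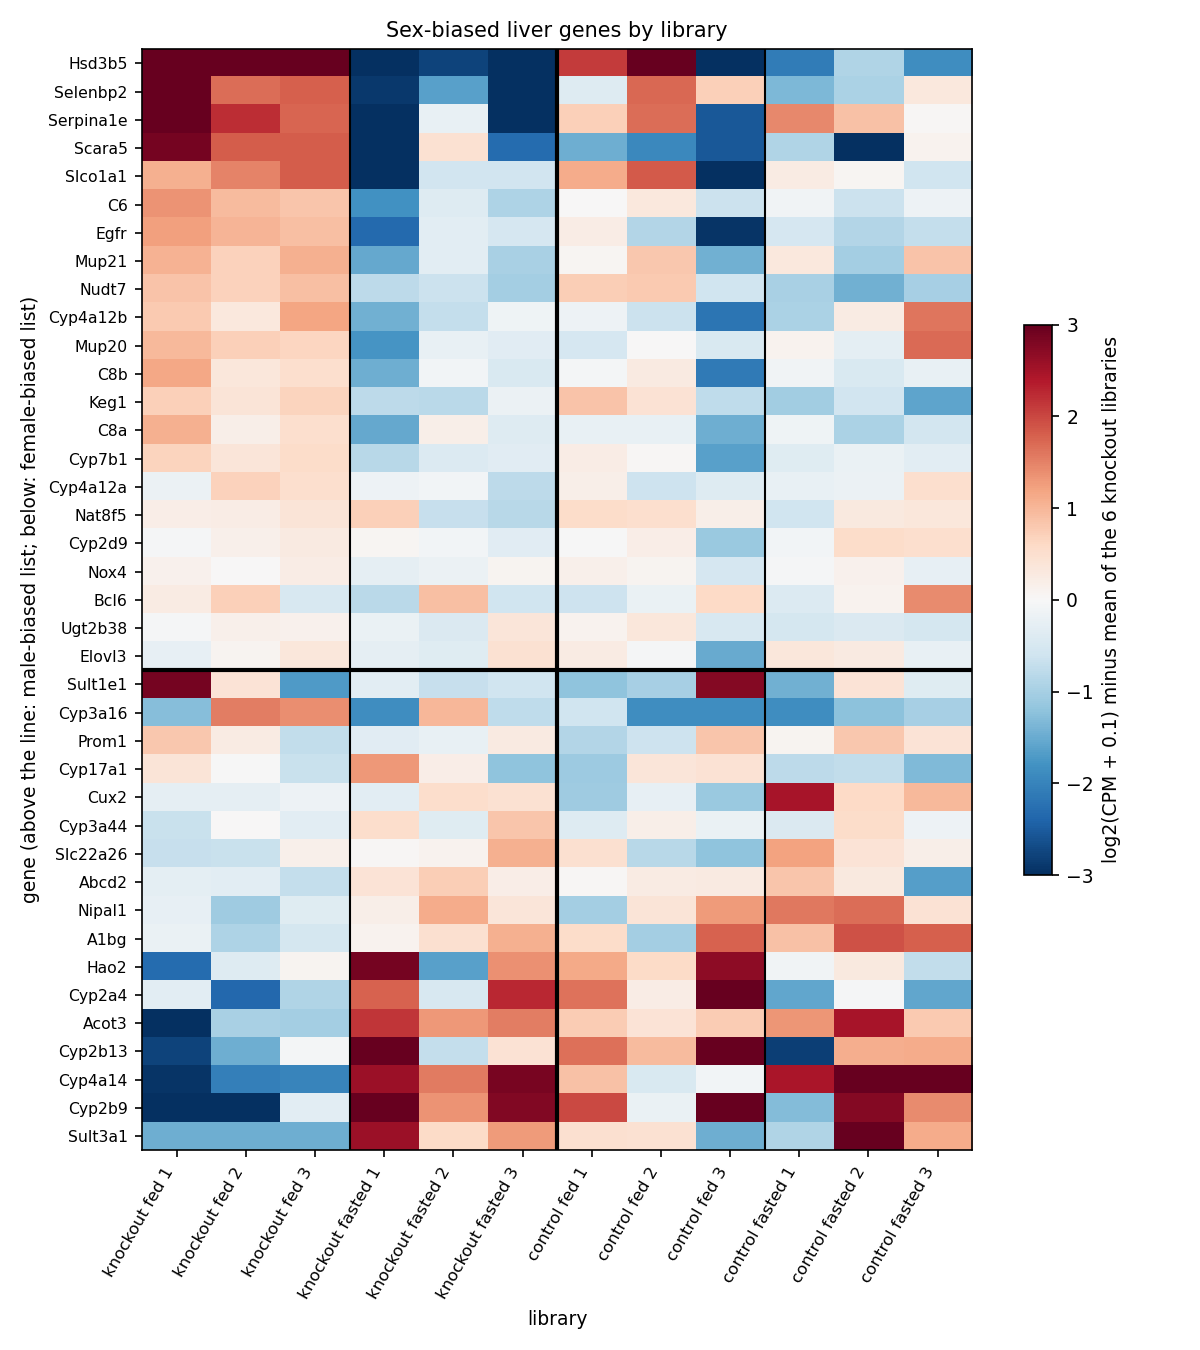
Levels of male-biased and female-biased liver genes, apart from those not reported here, in all 12 livers, as log2(CPM + 0.1) minus the mean of the 6 knockout livers, with colours limited at 3 in either direction. In knockout livers the male-biased genes are mostly lower and the female-biased genes mostly higher in the fasted columns, and the control columns vary within both feeding states.

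Antioxidant genes gave 1 increase and 1 decrease among 27 tested. Both were glutathione transferases, Gstt2 (log2 difference 0.88 ± 0.20 SE, adjusted p = 0.042), which missed the threshold without fed liver 1, 2 or 3 or fasted liver 1 or 3 (adjusted p 0.076 to 0.19), and Gstp1. Gstp1 was at 613, 369 and 499.9 CPM in fed knockout livers and at 154, 174 and 257 CPM in fasted ones (log2 difference -1.34 ± 0.21 SE, adjusted p = 0.0072), and passed without each of the 6 livers in turn. Its control livers were at 289.5, 343 and 303 CPM fed and 367, 301 and 391 CPM fasted, a log2 difference of 0.18. The difference between genotypes had an unadjusted p of 0.00020, an adjusted p of 0.23 by edgeR and one of 0.0017 by DESeq2. Gstp1 and Gstp2 are near-identical, and so uncertain as separate genes. In the unfolded protein and integrated stress response list, with a median of -0.26 over 23 genes, Atf5, a stress-response transcription factor, rose (log2 difference 0.88 ± 0.14 SE, adjusted p = 0.0085), and Pdia6, a protein-folding enzyme, fell (log2 difference -0.72 ± 0.15 SE, adjusted p = 0.028). Atf5 missed the threshold without fed liver 1 (adjusted p 0.054), and Pdia6 without fed liver 1 or 2 or fasted liver 1 or 3 (adjusted p 0.088 to 0.14). Among 23 apolipoprotein genes 1 was called (4.3%), where 2.48% of all tested genes were. That 1 was Apoa5, which promotes triglyceride clearance from blood. It went from 790.3, 966 and 836 CPM to 1284, 1369 and 1309.5 CPM (log2 difference 0.61 ± 0.13 SE, adjusted p = 0.024). The call was lost without fed liver 1 or 3 or fasted liver 1, 2 or 3 (adjusted p 0.067 to 0.13).

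Several programmes had no call by edgeR, where 2.48% of all tested genes were called. Over all tested genes 14.6% had an unadjusted p under 0.05 in either direction, and DESeq2 called 5.07%. For heat shock chaperones, 6 of 19 genes were higher at an unadjusted p under 0.05, and DESeq2 called 1. The 35 nuclear-encoded respiratory chain genes had 32 log2 differences above 0 and a median of 0.15, with 2 higher at an unadjusted p under 0.05 and 0 called by DESeq2. Autophagy and lysosome genes had 4 of 26 higher and 1 lower at that unadjusted level, and DESeq2 called 1 lower. Acute phase proteins had 2 of 27 higher and 5 lower, with 2 called lower by DESeq2. The cell cycle list had a median of -0.90, with 3 of 19 lower at the unadjusted level and 1 called by DESeq2. For 23 interferon response genes and 17 genes of fibrosis and matrix, DESeq2 also called 0, and 0 had an unadjusted p under 0.05.

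**Figure D4:**
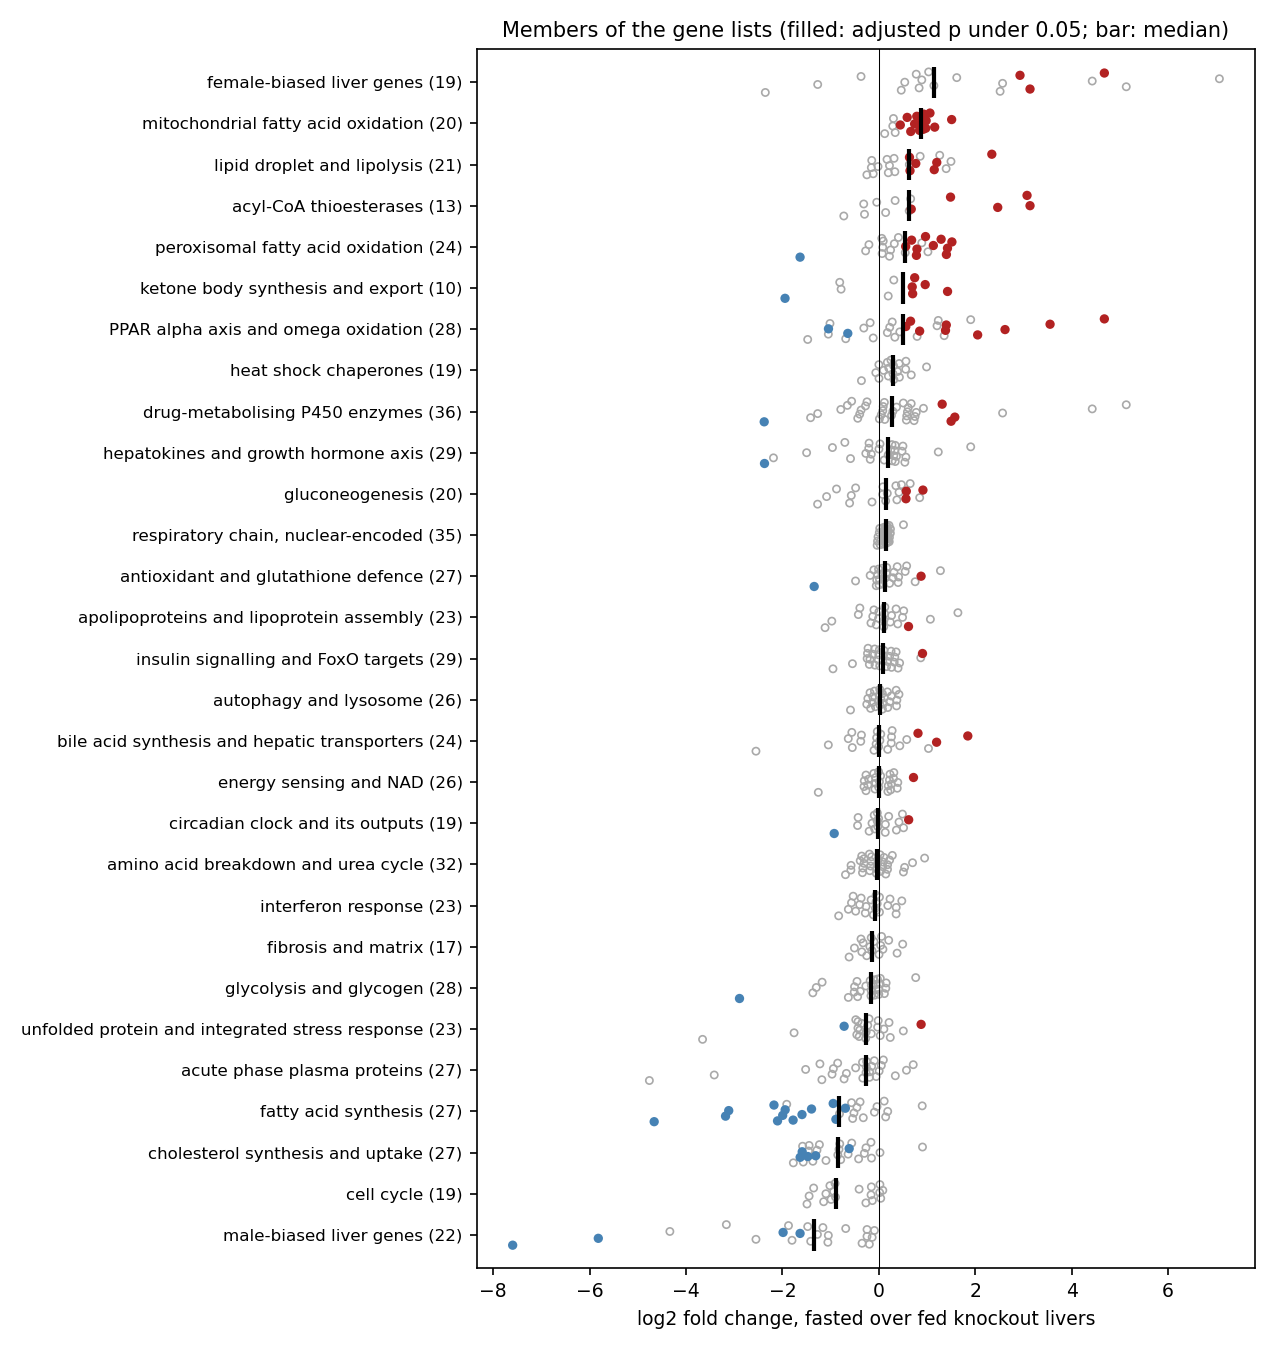
Log2 difference of fasted minus fed knockout livers for each tested member of 29 gene lists. Filled points are genes called by edgeR and bars are list medians; mitochondrial and peroxisomal oxidation, thioesterases and lipid droplets lie mostly to the right of 0, and fatty acid synthesis, cholesterol synthesis and male-biased genes to the left.

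Markers of other cell types had few calls, where 2.48% of all tested genes were called. EdgeR called 0 of 10 liver endothelial, 0 of 9 Kupffer, 0 of 8 infiltrating macrophage and 0 of 10 stellate markers. It also called 0 of 6 T and NK, 0 of 5 neutrophil, 0 of 5 erythroid and 0 of 1 exocrine pancreas markers. At an unadjusted p under 0.05, edgeR had 2 infiltrating macrophage markers lower, and 1 each of stellate, T and NK, erythroid and exocrine pancreas markers. It had 0 higher in these types, and 14.6% of all tested genes had such a p in either direction. DESeq2 called 1 stellate and 1 exocrine pancreas marker lower. The summed level of B cell and plasma cell markers was 123 to 144 CPM in the fed and 33.6 to 56.0 CPM in the fasted knockout livers, with 1 of 8 called. That 1 was Ighm, the immunoglobulin M heavy chain, at 79.8, 78.8 and 78.9 CPM fed and 17.1, 19.5 and 30.8 CPM fasted (log2 difference -1.82 ± 0.40 SE, adjusted p = 0.046). Cholangiocyte markers summed to 51.0 to 78.7 CPM fed and 38.1 to 57.3 CPM fasted, with Sox9 called lower (log2 difference -1.20 ± 0.28 SE, adjusted p = 0.038) as 1 of 6. Of 7 adipocyte markers 4 were too low to be tested: Lep was at 0 and Adipoq, Plin1 and Retn were at most 0.226, 0.0422 and 0.38 CPM in any library. The adipocyte sum of 29.9 to 36.8 CPM fed and 15.1 to 24.8 CPM fasted thus came almost wholly from Cfd, Adrb3 and Lipe, with Adrb3 called lower (log2 difference -1.64 ± 0.33 SE, adjusted p = 0.022) as 1 of 3. The call of Ighm was lost without each of the 6 livers in turn (adjusted p 0.072 to 0.16), that of Sox9 without fed liver 1, 2 or 3 or fasted liver 1 or 3 (adjusted p 0.055 to 0.19) and that of Adrb3 without fed liver 1 or 2 or fasted liver 1 or 3 (adjusted p 0.064 to 0.11). Their part in the results above was not tested.

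Of the 393 called genes, 295 were in none of the 29 lists. The largest decrease among them was Chrna4 (ENSMUSG00000027577), a nicotinic acetylcholine receptor subunit on chromosome 2, 181018380 to 181043546 (mm10), at 15.2, 22.1 and 11.9 CPM in the fed and 0.487, 0.225 and 0.288 CPM in the fasted livers. Fasted livers were all under 1 CPM and far below the fed livers (log2 difference -5.58 ± 0.44 SE, adjusted p = 0.00045, 47.9-fold lower). Retsat, which makes dihydroretinol and is known as a PPAR target in fat cells, rose from 110.3, 185 and 205 CPM to 934, 768 and 835 CPM (log2 difference 2.34 ± 0.26 SE, adjusted p = 0.0014). The rise was at least 3-fold between any fed and any fasted liver. Mat1a, which makes the methyl donor S-adenosylmethionine in hepatocytes, was among the called genes with the highest mean TPM, at 3099, 2788 and 2993 CPM and 5390.4, 5340.3 and 5190.3 CPM (log2 difference 0.84 ± 0.14 SE, adjusted p = 0.010), and missed without fed liver 2 (adjusted p 0.055). Chrna4 and Retsat passed without each of the 6 livers in turn, and the antisense gene Gm45053 overlaps Retsat. Acaa1a, Acot3, Acot4, Acsl5, Acss2, Adrb3, Apoa5, Crat, Echs1, Efna3, Hsd3b5, Mpc1, Pklr and Plin4 also overlap a gene on the opposite strand.

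Slc2a4 encodes GLUT4, the insulin-responsive glucose transporter of muscle and fat. In these livers it was low throughout, at 4.44, 4.95 and 1.40 CPM fed and 0.265, 0.0899 and 0.0576 CPM fasted, again on few counts (log2 difference -4.59 ± 0.65 SE, adjusted p = 0.0043), and it passed without each of the 6 livers in turn. Efna3, an ephrin ligand (-3.27), and Cib3, a calcium-binding protein (-3.76), also fell. Efna3 missed the threshold without each of the 6 livers in turn (adjusted p 0.059 to 0.14), and Cib3 without fasted liver 1 or 3 (adjusted p 0.065 to 0.067). Tdg, which encodes thymine DNA glycosylase of base excision repair, fell from 12.4, 12 and 12.3 CPM to 3.80, 2.16 and 2.88 CPM (log2 difference -2.05 ± 0.24 SE, adjusted p = 0.0015), while its processed copy Tdg-ps2 rose from 0.209, 0.394 and 0.431 CPM to 5.93, 4.72 and 5.99 CPM (log2 difference 3.99 ± 0.52 SE, adjusted p = 0.0027). These 2 sequences are near-identical, so the opposite changes are uncertain as changes of separate genes.

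Some control livers stood apart in cell type markers. Hepatocyte markers summed to 66523 CPM in fed control liver 3 and 68537 CPM in fasted control liver 3, against 84204 to 118700 CPM in the other control livers. Markers of B and plasma cells summed to 1940 CPM in fasted control liver 3, against 88.6 to 305 CPM in the other control livers.

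Fasted against fed livers gave more calls in controls, 657 (4.14%), than in knockouts with all 12 libraries. The order turned when either of these control livers was left out. Without fasted control liver 3 there were 312 calls in control and 371 in knockout livers, and without fed control liver 3 there were 538 and 573. Each of these fits had 1 library fewer in control than in knockout livers, which by itself can lower the control count. Leaving out 1 knockout liver likewise left 88 to 238 knockout calls. Its part in the turned order was not tested. The fit without fasted control liver 3 was added after the data were seen. A count does not show that the responses differ. Of the 393 knockout calls, 198 were called in the same direction in control livers, which is 50.4% of the knockout calls and 30.1% of the control calls. Without fed or fasted control liver 3 the shared calls were 166 and 133, again with 1 control library fewer. A further view is the size: among the 393, 375 had the same sign in control livers and 289 were larger in knockout livers. The median log2 difference of the genes called higher was 0.80 in knockout and 0.57 in control livers, and of those called lower -1.03 and -0.75. Since the 393 were chosen on the knockout values, larger values there are what the choice favours. The test of the difference between genotypes gave 1 call over all genes by edgeR (0.0063%) and 0 of the 393, and the same counts with either of these control livers left out. The 393 were also chosen on one side of this contrast, so no share of small unadjusted p-values is read from them. DESeq2 called 60 genes (0.301%), of which 15 were among the 393. For fasting in knockout livers, DESeq2 called 794 genes (5.07%).

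Among the 393, the smallest p for that difference was at Tsc22d3, which encodes the glucocorticoid-induced leucine zipper protein GILZ. It was the 1 gene called among 26 of energy sensing and NAD (3.8%), where 2.48% of all tested genes were called. Its knockout livers were at 67.5, 67 and 58.6 CPM when fed and at 99.2, 104 and 114 CPM when fasted (log2 difference 0.71 ± 0.13 SE, adjusted p = 0.016). In control livers it was at 35.7, 36.7 and 31.7 CPM fed and 107, 132 and 159 CPM fasted, a log2 difference of 1.94. The knockout difference was smaller by -1.22 on the log2 scale (adjusted p = 0.14 by edgeR and 3.8e-05 by DESeq2). Gstp2 came next, at -2.97 in knockout and 1.74 in control livers (adjusted p = 0.19 and 2.5e-05). Tdg was at -2.05 and -0.33 (adjusted p = 0.20 and 0.0019). Aldh3a2 was at 1.39 and 0.051 (adjusted p = 0.52 and 0.028). In these 4 genes the difference passed by DESeq2 and not by edgeR. The fasting call in knockout livers was lost for Tsc22d3 without fed liver 1, 2 or 3 or fasted liver 3 (adjusted p 0.050 to 0.064), for Gstp2 without fed liver 1 or fasted liver 1 or 2 (adjusted p 0.069 to 0.089) and for Aldh3a2 without fed liver 1 (adjusted p 0.050).

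**Figure D5:**
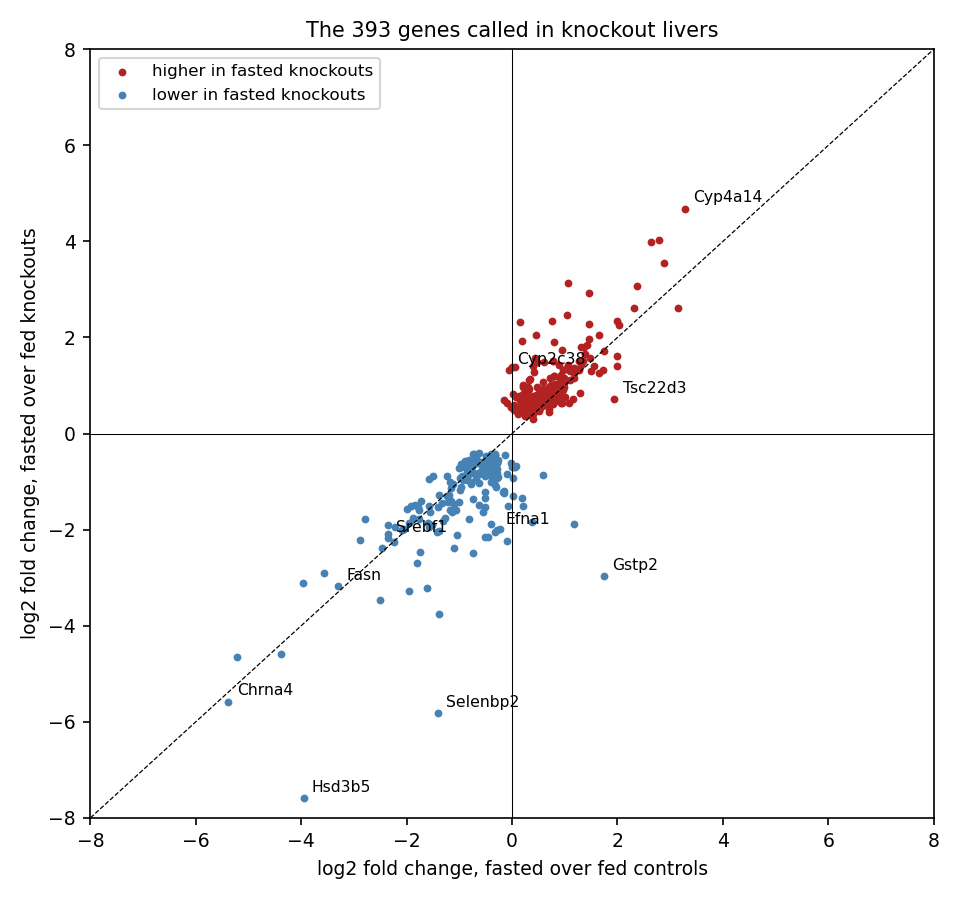
Log2 difference of fasted minus fed in control livers (horizontal axis) and in knockout livers (vertical axis) for the 393 genes called in knockout livers. The dashed line marks equal differences; 375 genes have the same sign in both genotypes and 18 have opposite signs.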

How the data were processed

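Liver RNA of 12 mice was sequenced as poly(A) RNA with a directional kit, per the labels' protocols. Raw counts for Ensembl genes and a table in TPM, which divides counts by gene length, were deposited by the authors. Per the submitters' processing notes the tools were featureCounts 1.6.3, HISAT2 2.1.0, Trimmomatic 0.38, bcl2fastq 2.19 and an earlier DESeq2, 1.24.0, on build mm10, in no stated order. The sources used here do not give the strand setting or the handling of multiply mapping reads. Groups were taken from the sample titles.

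All 12 libraries entered 1 fit of edgeR 4.0.16 in R 4.3.3 on the deposited counts, with TMM factors, a mean per group and robust dispersions. The filter filterByExpr kept 15862 of 55487 genes, with 99.869% or more of every library's counts. Contrasts were tested with the 2-sided quasi-likelihood F test and Benjamini-Hochberg adjustment over all tested genes, and a call is an adjusted p under 0.05 whatever the fold. The labels do not say how the replicates of a group are related, so p-values measure the spread between these samples. Promoter windows of 250 bases came from RefSeq on GRCm38.p6. The test was checked on simulated counts whose spread depended on the level of a gene alone. No simulated liver was set apart from its group, unlike fed liver 1 here.

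The members and the 29 gene lists, written from general knowledge, were chosen with earlier results of these data known. Genes were named by a rule: Foxo3 and its paralogs, the 12 largest called changes in each direction with at least 1 CPM, groups that do not overlap and a non-provisional symbol, the 8 called genes of highest TPM, up to 8 list members of smallest p and 3 of highest level that did not pass, and the 6 called genes of smallest interaction p. Acsl1, Ehhadh, Elovl6, Etfb, G6pc, Hadha, Mlxipl, Ppara and Srebf2 were added for their role, and Ighm, Sox9, Adrb3, Nfya, Nfyb and Nfyc after their values were seen. Some genes that the rule selects are not reported here. Alternatives were RLE size factors, low counts left unfiltered, a minimum of 1 CPM in 3 libraries, DESeq2 1.42.0, only the knockout libraries, a replicate block, and leaving out 1 library. The library left out was each knockout library in turn, fed control liver 3 or fasted control liver 3, and no other control liver.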

Additional observations from a re-analysis of the deposited data

Results flagged for a closer look

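Rpl29 (ENSMUSG00000048758), which encodes a protein of the large ribosomal subunit, was the 1 gene whose response to fasting differed between the genotypes by the edgeR test of the difference. It was at 98.6, 86.2 and 76.3 CPM in fed and 84.9, 76.5 and 48.2 CPM in fasted knockout livers, with a log2 difference of -0.32 ± 0.21 (SE; adjusted p = 0.55). In control livers it was at 87.7, 93.6 and 79 CPM fed and 4.10, 6.0 and 3.29 CPM fasted, with a log2 difference of -4.29 (adjusted p = 1.7e-05). The knockout difference exceeded the control difference by 3.98 ± 0.32 on the log2 scale (SE; adjusted p = 0.00064), and the 3 fasted control livers were the only low ones of the 12. Ribosomal protein genes have many near-identical copies, so the value of this 1 gene is uncertain.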

How the results depend on the processing

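In knockout livers all 393 calls kept their direction in each fit that left out 1 knockout library. This was all but fixed in advance, because their fed and fasted livers did not overlap. DESeq2 gave 794 calls, with 401 higher and 393 lower, and included 391 of the 393. Leaving out 1 library gave from 88 to 573 calls, from 41 to 295 higher and from 47 to 278 lower, the lowest without fed knockout liver 1 and the highest without fed control liver 3. For the difference between genotypes, edgeR gave 1 call, 5 without a filter on low counts, 1 to 3 with 1 library left out (each knockout library, fed control liver 3 or, added after the data were seen, fasted control liver 3), and DESeq2 gave 60. Of the 97 named genes called, DESeq2 kept all 96 it could test, the fit of only the knockout libraries kept 85 of 96, and the fit without a filter kept 77. No named gene changed direction under an alternative where it was called, either in the main fit or in that alternative. Changes of sign in named genes called in neither were not counted.

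The replicate block gave 229 calls with 108 higher, of which 189 were among the 393, and kept 55 of the 97 named calls. Same-numbered fed and fasted livers deviated together with correlations of -0.11, 0.044 and 0.168, so the numbers do not show a pairing, and of the fasted livers fasted liver 3 alone correlated best with its own number.

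Of the 393 called genes, 4 had a mean under 1 CPM in both groups, where each value rests on few counts.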

Other observations

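Further genes outside the lists passed the test without each of the 6 livers in turn, and those named here were chosen after their values were seen. A second nicotinic receptor subunit, Chrna2, moved opposite to Chrna4, from 2.61, 4.84 and 4.74 CPM fed to 16.1, 11.7 and 12.6 CPM fasted (log2 difference 1.73 ± 0.27 SE, adjusted p = 0.0074). Slc4a4, a sodium bicarbonate cotransporter, was at 91.2, 101 and 124 CPM fed and 263, 257 and 328 CPM fasted (log2 difference 1.42 ± 0.16 SE, adjusted p = 0.0014). Every fasted liver held at least 2-fold more than every fed liver. Sall1, a zinc finger transcription factor, rose from 20.8, 24.5 and 22.1 CPM to 42.8, 45.7 and 57.6 CPM (log2 difference 1.12 ± 0.14 SE, adjusted p = 0.0021).

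Cyp2r1, a 25-hydroxylase of vitamin D, fell from 22.5, 21.1 and 21.5 CPM to 8.67, 10.5 and 12.6 CPM (log2 difference -1.04 ± 0.15 SE, adjusted p = 0.0048). Svil, which encodes the actin-binding protein supervillin, went from 65.1, 57 and 52.6 CPM to 26.6, 28.9 and 28.4 CPM (log2 difference -1.06 ± 0.10 SE, adjusted p = 0.00071). In both the fed livers lay above all fasted livers. Their log2 differences in control livers were -0.77 for Cyp2r1 and -1.11 for Svil, beside 1.74 for Chrna2, 0.90 for Slc4a4 and 1.09 for Sall1.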
